A study of Mus musculus with 79 samples.

Results

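The interleukin-6 (IL-6) family was followed through the repair of a cut mouse nerve as 10 genes, namely the cytokines Il6, Osm, Lif, Il11, Clcf1 and Cntf and the receptor chains Il6ra, Il6st, Lifr and Osmr. They were chosen by symbol from the 23361 genes listed in the count tables, and all 10 were found. Their RNA was sequenced from macrophages and Schwann cells (SC) that had been sorted out of the regenerative bridge, the tissue that grows between the cut nerve ends, and in the distal stump of the nerve. The 79 libraries came from 32 mice, 16 male and 16 female, of which 31 gave both sorted cell types and 15 gave all 3 kinds of sample.

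All animals carried enhanced green fluorescent protein (eGFP) under the human S100β promoter, a reporter that marks Schwann cells, and in all of them a freshly cut common peroneal nerve was joined to a tibial nerve stump through a silicone conduit. In the immediate groups the tibial nerve was cut at the time of repair and only a sham incision had been made 8 weeks before, whereas in the delayed groups the tibial stump had been left denervated for 8 weeks. Macrophages were taken at day 5 (8 immediate, 9 delayed) and day 14 (8 immediate, 7 delayed), SC at day 5 (7 immediate, 9 delayed) and day 14 (8 immediate, 7 delayed), and the distal stump at day 5 only (7 immediate, 9 delayed). Each library came from 1 animal, so p-values refer to the spread between animals. The ages of the animals were not given in the sources used here, and no uninjured nerve was among the samples.

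Members of the IL-6 family share the signalling chain gp130, the product of Il6st. IL-6 and IL-11 first bind their own receptor (IL-6 binds the product of Il6ra) and then bring gp130 chains together, LIF and CNTF act through a pair of gp130 and the LIF receptor, and mouse oncostatin M, the product of Osm, acts mainly through a pair of gp130 and the product of Osmr. CLCF1 shares the CNTF receptor. The receptors activate JAK kinases and the transcription factor STAT3 and are held back by SOCS proteins. In peripheral nerve, Cntf is a product of myelinating Schwann cells, and Lif and Il6 are known to be induced after injury.

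In the mouse genome (GRCm38, GENCODE annotation), Osm lies at chr11:4236420-4241026 on the plus strand and Lif follows it at chr11:4257557-4272514 on the same strand, with 16530 bases between the genes. Il6 lies at chr5:30013114-30019981 on the plus strand, Il11 at chr7:4772373-4782859 on the minus strand, and Clcf1 at chr19:4214238-4223490 on the plus strand. Cntf lies at chr19:12763660-12765632 on the minus strand, and 847 of its 1073 exon bases also belong to exons of Zfp91. Reads of Cntf could therefore have been divided between both genes, and its values are uncertain. The receptor genes are Il6ra at chr3:89864059-89913196 (minus), Il6st at chr13:112464070-112510086 (plus), Lifr at chr15:7090614-7197489 (plus) and Osmr at chr15:6813577-6874969 (minus).

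The bases just before the start of transcription are shown for Il6, Lif and Cntf, the 3 cytokine genes with both a repair or cell type difference described below and a RefSeq promoter (GRCm38.p6) in hand. RefSeq promoters were found for 8 of the 10 genes, the others being Osm and Clcf1. Capitals mark letters that match a searched motif, and each sequence reads 5′ to 3′ on the strand of its gene.
Il6, chr5:30012864-30013113, plus strand: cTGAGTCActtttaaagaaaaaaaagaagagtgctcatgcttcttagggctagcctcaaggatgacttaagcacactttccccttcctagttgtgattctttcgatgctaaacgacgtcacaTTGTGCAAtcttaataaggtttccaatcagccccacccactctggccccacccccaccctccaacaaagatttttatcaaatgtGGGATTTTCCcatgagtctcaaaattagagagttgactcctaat
Lif, chr11:4257318-4257556, plus strand: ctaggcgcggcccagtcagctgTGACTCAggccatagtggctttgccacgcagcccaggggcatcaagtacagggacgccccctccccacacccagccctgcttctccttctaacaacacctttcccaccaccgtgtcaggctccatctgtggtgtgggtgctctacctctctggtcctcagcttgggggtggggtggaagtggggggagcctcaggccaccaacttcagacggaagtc
Cntf, chr19:12765633-12765882, minus strand: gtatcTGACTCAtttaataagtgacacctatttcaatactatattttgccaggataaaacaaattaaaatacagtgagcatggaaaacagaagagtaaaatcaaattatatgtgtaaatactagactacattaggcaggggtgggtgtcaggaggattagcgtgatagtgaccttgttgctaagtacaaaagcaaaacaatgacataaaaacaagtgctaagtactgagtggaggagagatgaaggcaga

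Both strands were searched for an AP-1 motif (TGANTCA), a CRE (TGACGTCA), a STAT motif (TTCNNNGAA), an NF-kB motif, a C/EBP motif (TTGCNNAA) and a TATA box (TATAAA). In Il6, TGAGTCA (AP-1) stood 249 to 243 bases before the start, TTGTGCAA (C/EBP, on the opposite strand) 128 to 121 bases before it, and GGGATTTTCC (NF-kB) 44 to 35 bases before it. TGACTCA, the AP-1 motif, stood 228 to 222 bases before the start of Lif and 245 to 239 bases before that of Cntf. Positions are counted from the first transcribed base in RefSeq, which is base 4257568 for Lif, and the Lif sequence printed here is shorter than the others, ending at base 4257556. Among all 32851 promoters in the RefSeq table, windows of this kind held the AP-1 motif in 6.75%, the C/EBP motif in 9.56% and the NF-kB motif in 1.41%. A match describes the letters only.

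Libraries held 14928746 to 28499407 counts in macrophages, 11614940 to 30796824 in SC and 3898778 to 9212709 in the distal stump. Levels are given as CPM, the count of a gene per 1000000 counts of its library, and a count of 3 in the smallest library equals 0.201 CPM in macrophages, 0.258 in SC and 0.769 in the stump. The macrophage label fitted its markers, with 10 macrophage genes summing to between 17600 and 36900 CPM in every macrophage library. The libraries labelled SC went against their label, in that dendritic cell genes outweighed Schwann cell genes. In them 10 Schwann cell genes summed to 143 to 3480 CPM, above the 1.73 to 34.3 CPM of macrophages. Their 10 dendritic cell genes summed to 20800 to 45500 CPM, compared with 1040 to 17800 CPM in macrophages. These libraries are therefore called SC-labelled. Of 5 measured neutrophil genes, the sum was 8120 CPM in SC-labelled immediate day 14 replicate 3 and 1340 CPM in replicate 5. Calls that rest on this group were also checked without both libraries.

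The heat map of levels per kilobase orders the members within each group. In macrophages, Osm stood first of the 10 members in all 4 groups on the scale of CPM per kilobase of exon, with a mean of 64.9 in immediate and 37.2 in delayed repair at day 5. In the SC-labelled libraries at day 5, Osm (59.1 immediate, 71.2 delayed) and Il6 (32.7 immediate, 40.6 delayed) led the order on the same scale. In the distal stump the shared receptor chain Il6st was first, at 101 CPM per kilobase in immediate and 83.8 in delayed repair. The sorted cells and the stump were prepared with different library kits, so their levels are set side by side only.

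**Figure D1:**
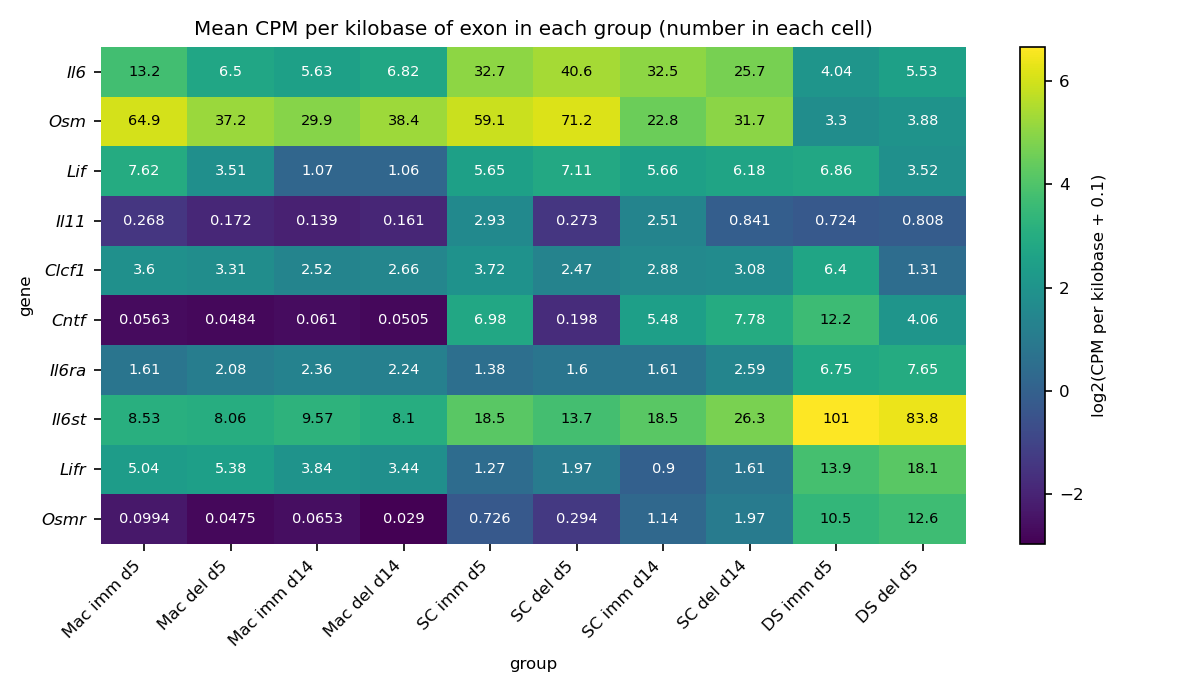
Heat map of the mean level of each IL-6 family member (rows) in each group (columns, with Mac for macrophages, SC for SC-labelled libraries, DS for distal stump, imm and del for immediate and delayed repair, d5 and d14 for the day), in CPM per kilobase of exon. Osm has the highest value of every macrophage column and Il6st that of both stump columns.

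Among cytokines, the median over all macrophage libraries was 87.3 CPM for Osm, 17.1 for Il6 and 10.7 for Clcf1, and Lif ran from 0.965 to 64.3 CPM. Il11 did not reach 5 CPM in any of the 32 macrophage libraries, and Cntf was at 0 in 18 of 32 with a highest value of 0.281 CPM. In the 31 SC-labelled libraries the medians were 80.0 CPM for Osm, 72.4 for Il6, 23.0 for Lif, 10.1 for Clcf1 and 1.27 for Cntf. Il11 reached 34.8 CPM in SC-labelled immediate day 5 replicate 1 and 29.3 CPM in immediate day 14 replicate 1, and its median over SC-labelled libraries was 0.535 CPM. Cntf ran from 0 to 37.1 CPM in the SC-labelled immediate day 5 group. In the stump the median was 20.7 CPM for Lif, 9.14 for Il6 and 7.37 for Osm.

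Among receptors, Il6st had a median of 93.6 CPM in macrophages, 186 CPM in SC-labelled libraries and 1030 CPM in the stump. Lifr stood at 45.1 CPM in macrophages, 10.8 in SC-labelled libraries and 172 in the stump. Il6ra, the IL-6 binding chain, stood at 18.0, 13.2 and 61.4 CPM in the same order. Osmr was close to the counting limit in macrophages, with a median of 0.394 CPM and 10 of 32 libraries at 0, ranged from 0 to 58.9 CPM in SC-labelled libraries, and lay between 103 and 193 CPM in every stump library. The lowest value among Il6ra, Il6st, Lifr and Osmr in the stump was 46.8 CPM, for Il6ra.

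**Figure D2:**
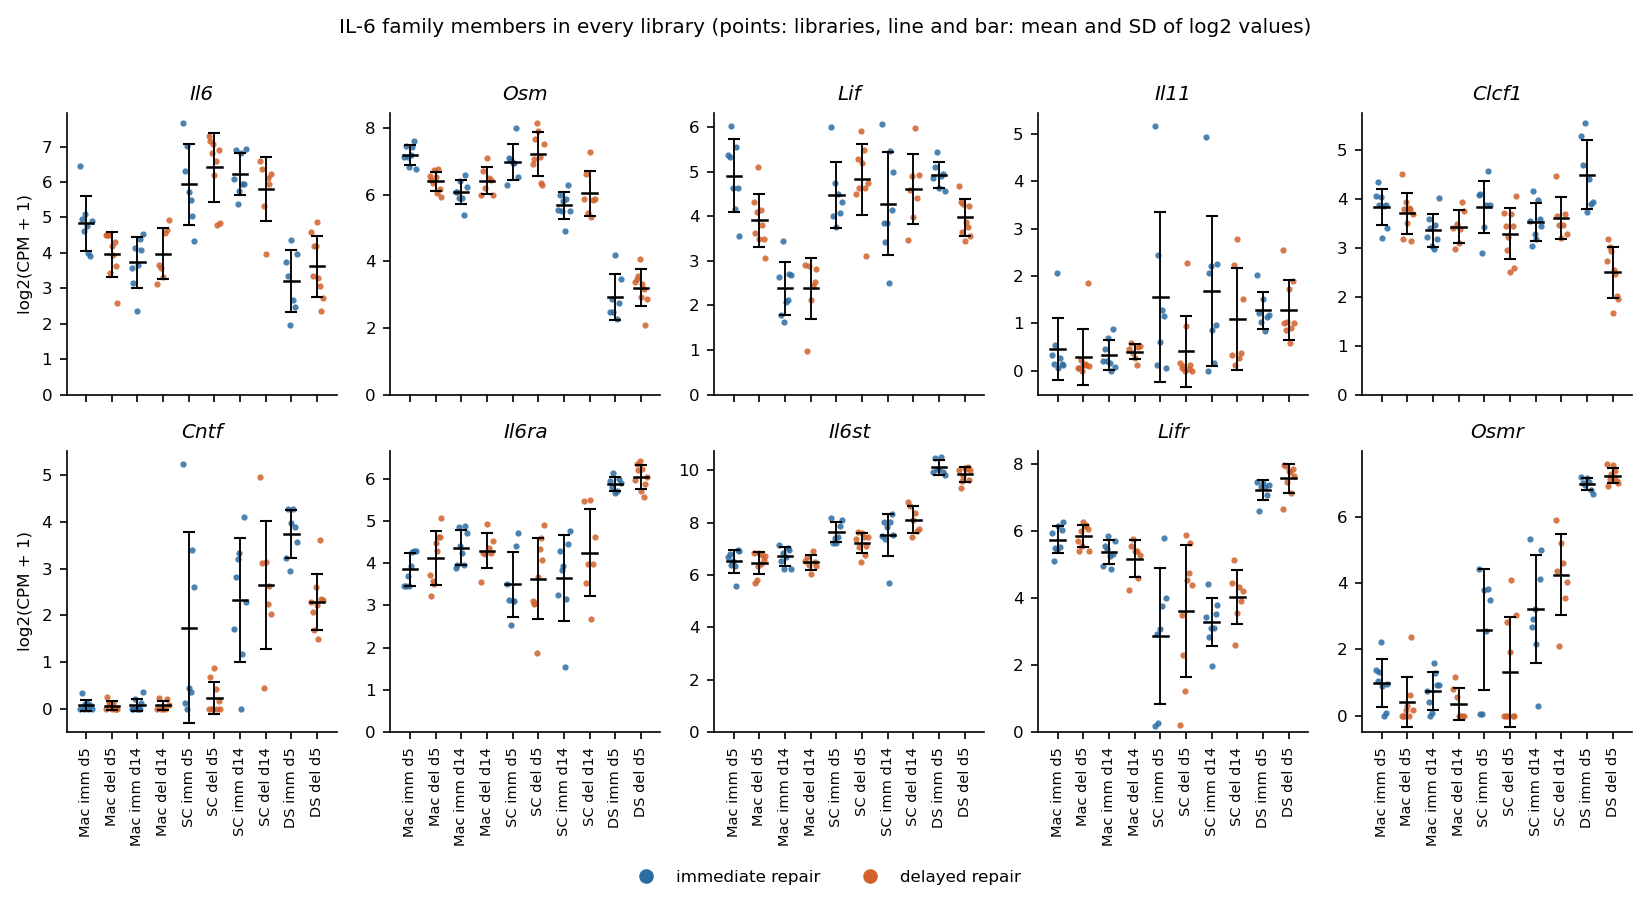
Level of each member in every library, as log2 of CPM plus 1, by group (abbreviations as in the heat map). Points are libraries coloured by repair group, and lines and bars are the mean and SD. Il6st, Lifr, Il6ra and Osmr stand highest in the distal stump, and Osm stands lowest there.

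The first comparison asked how far the 2 sorted populations differ, with macrophages and SC from the same bridges (16 SC-labelled and 17 macrophage libraries at day 5, 15 of each at day 14). Each library is bulk RNA, so that fewer cells of a type and less RNA per cell cannot be told apart. At day 5, 6 of the 8 members tested differed (edgeR quasi-likelihood test, adjusted p under 0.05), where 65.3% of all genes tested did, 35.6% higher and 29.7% lower in SC-labelled libraries. Il6 was higher in SC-labelled libraries, at 90.2 ± 54.8 CPM (SD, n = 16) against 23.5 ± 17.8 (SD, n = 17), a log2 difference of 1.82 (SE 0.351, edgeR adjusted p = 2.97e-05). Il6st was higher by 0.67 (SE 0.123). Osmr, also among the 6, stood at 5.85 ± 6.77 CPM against 0.871 ± 1.26 CPM, and did not pass once the animal was a block (edgeR adjusted p = 0.342). No macrophage library of either day reached 5 CPM of Osmr, so that it entered the test through the SC-labelled libraries alone. Lifr was lower by a log2 difference of -2.03 (SE 0.499), at 17.9 ± 19.5 against 56.2 ± 14.0 CPM, Il6ra by -0.58 (SE 0.235) and Clcf1 by -0.48 (SE 0.189). Osm (0.22, SE 0.207) and Lif (0.11, SE 0.316) did not pass.

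At day 14, 7 of 9 members tested differed, against 64.7% of all genes. The direction was higher in SC-labelled libraries for Il6 (1.90, SE 0.262), Il6st (0.90, SE 0.172), Lif (2.08, SE 0.329), Osmr and Cntf. Osmr stood at 18.5 ± 16.6 against 0.586 ± 0.631 CPM and Cntf at 7.03 ± 7.69 against 0.0602 ± 0.0894 CPM (SD, n = 15 each). Both entered the test through the SC-labelled libraries alone, with Cntf at 0 in 18 and Osmr in 10 of the 32 macrophage libraries, and no fold is given for them. Lif stood at 25.7 ± 18.4 CPM (SD, n = 15) in SC-labelled libraries and at 4.64 ± 2.2 CPM (SD, n = 15) in macrophages, and all 15 SC-labelled libraries exceeded the macrophage mean. Lifr (-2.02, SE 0.232) and Osm (-0.71, SE 0.158) were lower. With the animal that gave both cell types as a block, 8 of 9 were called, Il6ra (-0.80, edgeR adjusted p = 0.0145) being added to the 7. Without TMM scaling the median log2 difference of all genes shifted by 0.25 at day 5 and by 0.37 at day 14. On that scale Osm was higher in SC-labelled libraries at day 5 (0.45, edgeR adjusted p = 0.0332), and Clcf1 (-0.21) and Il6ra (-0.31) at day 5 and Osm at day 14 (-0.34, edgeR adjusted p = 0.0802) did not pass. The same 7 members were called at day 14 without the 2 libraries high in neutrophil markers. The dendritic cell markers given above moved with the cell type label in both comparisons, and their part in these differences was not tested.

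Among other genes of the family, Ebi3, a subunit of IL-27 and IL-35, had a median of 103 CPM in SC-labelled libraries and 50.8 in macrophages. Il11ra1, the IL-11 receptor chain, stood at 9.82 CPM in SC-labelled libraries and 39.2 CPM in macrophages.

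The next comparison asked what the 8-week delay did to macrophages. At day 5, macrophages from delayed repair carried less Osm, with a lowest, median and highest value of 59.8, 85.5 and 107 CPM, compared with 107, 143 and 193 CPM in the immediate group. The ranges met at 107 CPM without crossing, as they did for 0.0476% of all genes tested. The mean was 84.6 ± 16.9 CPM (SD, n = 9) against 147 ± 29.8 CPM (SD, n = 8), a log2 change of -0.89 (SE 0.155, 95% interval -1.19 to -0.58, edgeR adjusted p = 0.0384), with 9 of 9 delayed libraries below the immediate mean. Osm was the 1 member called of 7 tested, where 0.0357% of all genes were called and 0.0238% called lower. It was not called with edgeR's own filter on low counts (edgeR adjusted p = 0.0677) or with no filter (edgeR adjusted p = 0.0782). The call held in 4 of the 17 fits that left out 1 library each, namely those without delayed replicate 1 or 4 or without immediate replicate 4 or 8, and was lost in the other fits. Over all 17 fits the edgeR adjusted p ran from 0.00914 to 0.0998 and the log2 change from -0.97 to -0.84.

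Lif and Il6 lay lower in the same libraries without passing the correction over all genes. With Osm they were the 3 of 7 members with an unadjusted p under 0.05, against 5.17% of all genes. Lif ran from 7.37 to 33.5 CPM (median 13.0) after delayed and from 10.7 to 64.3 CPM (median 31.6) after immediate repair, and these ranges overlap. Its log2 difference was -1.22 (SE 0.347, edgeR adjusted p = 0.492). Il6 ran from 5.02 to 21.7 CPM (median 17.4) and from 14.1 to 86.1 CPM (median 27.5), with 9 of 9 delayed libraries below the immediate mean, a mean that 1 library raised: immediate replicate 1 held 86.1 CPM and the next highest 33.0. The Il6 log2 difference was -1.11 (SE 0.346, edgeR adjusted p = 0.56), and -0.68 without that library. Clcf1 (-0.20, SE 0.222) and the receptors Il6ra (0.26, SE 0.223), Il6st (-0.17, SE 0.174) and Lifr (0.01, SE 0.156) differed by less than 2 standard errors.

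Marker sums of the macrophage libraries overlapped between these groups. The 10 macrophage genes summed to 17600 to 28100 CPM after delayed and 22700 to 28800 CPM after immediate repair, with none called, and no gene of the dendritic cell, neutrophil or isolation response lists was called. Of the 11 isolation response genes 9 had a log2 difference above 0 (median 0.23), and their sum was 4770 to 8520 CPM against 3970 to 7090 CPM. Both endothelial markers tested lay above 0 without being called (median 0.58), and that list had a summed median of 59.7 against 32.2 CPM. The part of these genes in the Osm difference was not tested. At day 14, no member of 7 tested was called by edgeR, DESeq2 or limma voom, as for 0% of all genes by edgeR. At an unadjusted p under 0.05, 1 of 7 members passed, against 2.21% of all genes. That gene was Osm, which now lay higher after delay (87.2 ± 26.0 CPM, SD, n = 7, against 68.0 ± 16.5, SD, n = 8, log2 difference 0.38, SE 0.175, edgeR adjusted p = 1).

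**Figure D3:**
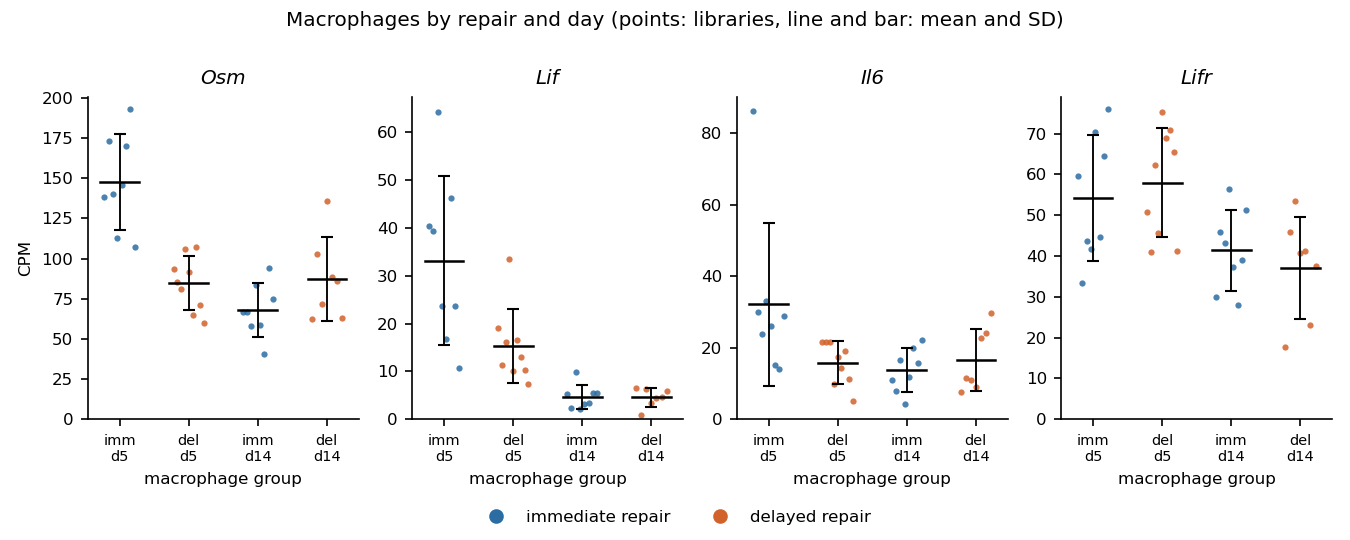
Osm, Lif, Il6 and Lifr in macrophages, in CPM for each library (points), with the mean and SD (line and bar), by repair group and day. At day 5 the immediate group has the highest mean for the 3 cytokines, and by day 14 both repair groups hold Lif at 9.86 CPM or below.

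From day 5 to day 14 the cytokines Lif, Osm, Il6 and Clcf1 fell in macrophages of immediate repair, while Il11 and Cntf were below the filter. Of 7 members tested 5 fell and none rose, against 6.01% of all genes that fell, 5.33% that rose and 11.3% called in either direction. Lif went from a range of 10.7 to 64.3 CPM to a range of 2.08 to 9.86 CPM, a log2 change of -3.02 (SE 0.388, edgeR adjusted p = 7.69e-05). Osm went from 107 to 193 CPM to 40.7 to 94.4 CPM, a log2 change of -1.29 (SE 0.156, edgeR adjusted p = 3.83e-05). For both genes the days did not overlap, as for 2.77% of all genes tested. Il6 fell from 32.1 ± 22.8 to 13.7 ± 6.15 CPM (SD, n = 8 each, log2 change -1.42, SE 0.368, edgeR adjusted p = 0.0163), and Clcf1 (-0.69, SE 0.20) and the receptor Lifr (-0.54, SE 0.166) fell less. The Il6 mean at day 5 includes immediate replicate 1, at 86.1 CPM. With the replicate number of the labels as a block, Il6, Clcf1 and Lifr did not pass (edgeR adjusted p = 0.0598, 0.0555 and 0.0724). Without TMM scaling, which shifted the median of all genes by 0.16, Clcf1 (-0.51, edgeR adjusted p = 0.0750) and Lifr (-0.39, edgeR adjusted p = 0.138) did not pass. Il6ra (0.39, SE 0.188) and Il6st (0.015, SE 0.173) did not pass.

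In macrophages of delayed repair 2 of 7 members fell, against 3.13% of all genes that fell, 3.28% that rose and 6.41% called in all. Lif fell from a range of 7.37 to 33.5 CPM to a range of 0.965 to 6.45 CPM without overlap, as for 1.38% of all genes (log2 change -1.81, SE 0.364, edgeR adjusted p = 0.00481). Lifr fell from 57.9 ± 13.4 (SD, n = 9) to 37.1 ± 12.5 CPM (SD, n = 7, log2 change -0.70, SE 0.197, edgeR adjusted p = 0.0402, and 0.0736 without TMM scaling). Osm, at 84.6 ± 16.9 and 87.2 ± 26.0 CPM, and Il6, at 15.8 ± 5.99 and 16.6 ± 8.74 CPM, had log2 differences of -0.029 (SE 0.178) and -0.038 (SE 0.323). Dendritic cell markers moved with the day in both repair groups, with 3 of 5 tested genes called higher at day 14 and sums of 6860 to 17800 CPM against 1040 to 4710 CPM, and their part in the falls was not tested.

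The repair by day term asked directly whether the change over time differed between repair groups. It was called for Osm, 1 of 7 members tested against 0.0223% of all genes, at 1.27 on the log2 scale (SE 0.239, edgeR adjusted p = 0.0328). The change it compares was -1.29 after immediate and -0.029 after delayed repair. Il6 (1.39, SE 0.511) and Lif (1.23, SE 0.528) had terms of like size, with an edgeR adjusted p of 1 for each, and passed only at an unadjusted p under 0.05. Without TMM scaling the Osm term was 1.16 (edgeR adjusted p = 0.0950), and over all alternatives its adjusted p ran from 0.00088 to 0.095.

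In SC-labelled libraries no member passed the test of delay. At day 5 none of 8 tested was called by edgeR, DESeq2 or limma voom (0% of all genes by edgeR), and 1 of 8 had an unadjusted p under 0.05, against 5.26% of all genes. The groups overlapped for each of the 8, and 0.0416% of all genes had groups that did not. It was Il6st, at 152 ± 37.4 CPM (SD, n = 9) in the delayed group, compared with 205 ± 58.0 CPM (SD, n = 7) in the immediate group (log2 difference -0.45, SE 0.165, edgeR adjusted p = 0.847), with all 9 delayed libraries below the immediate mean. Cntf, below the filter there, was at 0 to 0.831 CPM after delayed repair, whereas after immediate repair it reached 37.1, 9.56 and 5.06 CPM in 3 libraries and stayed at or below 0.37 CPM in the others. In the same comparison the 9 tested Schwann cell markers all had a log2 difference below 0 (median -1.70) and the 10 macrophage markers all one above 0 (median 1.49), none of them called, and their part in these values was not tested.

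At day 14 none of 9 members was called by any of the 3 tools (0% of all genes by edgeR), and 1 of 9 had an unadjusted p under 0.05, against 3.65% of all genes. The groups overlapped for each of the 9, and 0.0587% of all genes had groups that did not. It was Lifr (17.4 ± 9.12 CPM, SD, n = 7, against 9.70 ± 5.18, SD, n = 8, log2 difference 0.80, SE 0.376, edgeR adjusted p = 0.998). The 95% intervals of the other members at day 14 reached from -1.22 to 2.16 for Cntf and from -0.07 to 0.94 for Osm.

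Over time Osm fell in the SC-labelled libraries of both repair groups. After immediate repair it fell from a range of 77.5 to 257 CPM to a range of 29.3 to 76.6 CPM, without overlap, as for 1.51% of all genes. The log2 change was -1.59 (SE 0.238, edgeR adjusted p = 0.00354), the 1 member called of 9, against 3.81% of all genes called and 3.10% that fell. Without the 2 day 14 libraries high in neutrophil markers it was -1.48 (edgeR adjusted p = 0.0111). After delayed repair Osm fell from 162 ± 70.2 (SD, n = 9) to 72.0 ± 40.9 CPM (SD, n = 7, log2 change -1.41, SE 0.336, edgeR adjusted p = 0.0204), while Il6st rose from 152 ± 37.4 to 291 ± 104 CPM (log2 change 0.72, SE 0.182, edgeR adjusted p = 0.0255), together 2 of 8 members against 8.09% of all genes, of which 3.34% rose and 4.75% fell. At an unadjusted p under 0.05 there were 3 of 8, against 26.6% of all genes. Il6, the third, at 98.6 ± 47.5 and 62.3 ± 27.5 CPM, had a log2 difference of -0.90 (SE 0.407, edgeR adjusted p = 0.165). Without TMM scaling the median of all genes shifted by 0.18 after immediate and 0.20 after delayed repair, and the same members were called.

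In the delayed group the Schwann cell markers also moved, with 3 of 10 called higher at day 14 (median 2.12), and all 10 macrophage markers lay below 0 (median -0.99). The summed fibroblast markers had a median of 605 CPM at day 5 (16.4 to 3240) and of 5080 CPM at day 14 (1890 to 20000), with 1 of 6 tested called higher, and 4 of 11 isolation response genes were called lower (median sum 11300 and 7320 CPM). After immediate repair the fibroblast sum had a median of 1590 CPM at day 5 (235 to 8910) and of 7120 CPM at day 14 (895 to 17100), with 1 of 7 called higher, and the isolation response sum one of 10600 and 7030 CPM, with none of 11 called. The part of these markers in the changes of Osm and Il6st was not tested. The repair by day term was called for none of 9 members by edgeR or DESeq2 (0% of all genes by edgeR), and 2 of 9 had an unadjusted p under 0.05, against 4.80% of all genes. These were Il6st (0.93, SE 0.308, edgeR adjusted p = 0.767) and Cntf (edgeR adjusted p = 0.749). Cntf was at 0 in 5 of 9 delayed day 5 libraries and entered this test through the other groups, so that no size is given for its term.

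In the distal stump at day 5, Clcf1, Cntf and Lif were lower after delayed repair. Clcf1 ran from 2.18 to 8.13 CPM (median 4.87) after delayed and from 12.4 to 46.5 CPM (median 20.2) after immediate repair. The groups did not overlap, as for 4.44% of all genes tested. Its mean was 5.00 ± 2.05 (SD, n = 9) against 24.3 ± 13.2 CPM (SD, n = 7), 4.77-fold lower on the fitted scale (log2 change -2.25, SE 0.314, 95% interval -2.87 to -1.64, edgeR adjusted p = 7.9e-05). In all, 3 of 9 members tested fell and none rose, where 13.5% of all genes fell, 12.8% rose and 26.3% were called. At an unadjusted p under 0.05 there were 5 of 9, against 38.5% of all genes.

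Cntf ran from 1.80 to 11.2 CPM (median 3.88) against 6.71 to 18.5 CPM (median 13.9), and delayed replicate 7 alone, at 11.2 CPM, overlapped the immediate group. Its log2 change was -1.56 (SE 0.30, edgeR adjusted p = 0.00116). Cntf and Clcf1 passed the filter of 5 CPM through the immediate group, since the delayed median of each lay below 5 CPM. Zfp91, which shares exon bases with Cntf, stood at 161 ± 11.5 CPM after delayed and 185 ± 13.1 CPM after immediate repair. Lif ran from 9.83 to 24.6 CPM (median 13.6) against 22.6 to 42.5 CPM (median 28.7), with 1 delayed library, replicate 1 at 24.6 CPM, inside the immediate range. Its log2 change was -0.94 (SE 0.178, edgeR adjusted p = 0.00105). All 3 genes kept their call in each of the 16 fits that left out 1 library and under all 7 other alternatives.

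Of the other family genes, Il27ra, the IL-27 receptor chain, was higher in the delayed stump (0.64, edgeR adjusted p = 0.00642).

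Il6, Osm and the receptors did not pass the edgeR test in the stump, and Il11 was below the filter. Il6 stood at 13.4 ± 8.38 against 9.82 ± 6.11 CPM and Osm at 8.81 ± 3.52 against 7.50 ± 4.81 CPM. Osmr ran from 122 to 193 CPM (median 144) after delayed and from 103 to 145 CPM (median 129) after immediate repair, with 8 of 9 delayed libraries above the immediate mean, and a log2 difference of 0.29 (SE 0.106, edgeR adjusted p = 0.0533). Osmr passed under DESeq2 (adjusted p = 0.0390), with sex as a covariate (edgeR adjusted p = 0.0462) and under limma voom (adjusted p = 0.0314), and its adjusted p reached 0.125 without the filter on low counts. Lifr, at 196 ± 50.0 against 150 ± 27.9 CPM, had a log2 difference of 0.41 (SE 0.178, edgeR adjusted p = 0.0991) and passed under limma voom (0.47, adjusted p = 0.045). Il6st (-0.24, SE 0.134) and Il6ra (0.21, SE 0.117) differed by less than 2 standard errors.

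Markers of the cells in the stump moved with these genes. All 9 Schwann cell markers tested were called lower after delay (median log2 change -2.68), and the sum of the list was 123 to 868 CPM against 1430 to 3400 CPM. Within it, Sox10, which defines the lineage, stood at 25.6 ± 16.8 against 105 ± 31.2 CPM, and Ngfr, a marker of the repair Schwann cell, at 99.4 ± 76.8 against 757 ± 256 CPM. Of the other lists, 5 of 6 endothelial, 4 of 9 dendritic cell and 3 of 10 macrophage markers were called higher and 0 of 8 fibroblast markers were called. The 1 T cell marker tested was called higher, and of 5 mural markers 3 were called higher and 1 lower. All 4 neutrophil markers tested and the 1 B cell marker tested lay above 0 without a call. Axon or neuron markers lay lower after delay, with a summed median of 19.0 against 163 CPM and 1 of 2 tested called lower. The isolation response genes were mixed. Their summed median was 678 against 1020 CPM and 2 of 10 were called lower, but 6 of 10 had a log2 change above 0 (median 0.16). Of 4 mast cell markers 3 were called lower and 1 higher. Skeletal muscle markers, none of them tested, summed to 2.62 to 2200 CPM after delayed and to at most 6.57 CPM after immediate repair. The part of these markers in the values of Clcf1, Cntf and Lif was not tested.

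**Figure D4:**
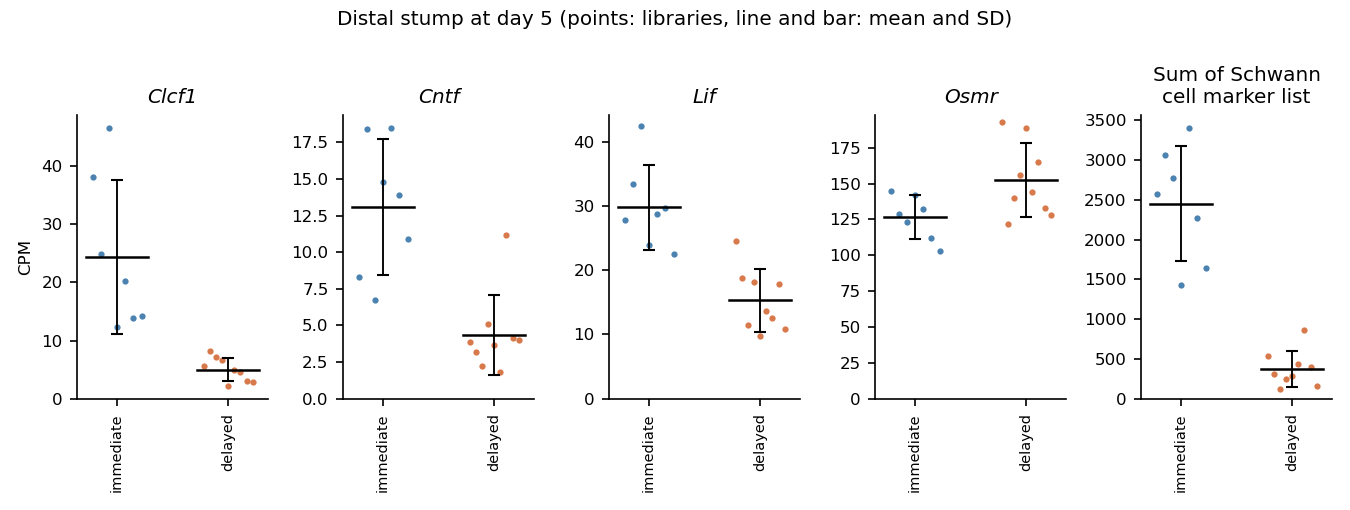
Clcf1, Cntf, Lif, Osmr and the sum of the Schwann cell marker list in the distal stump at day 5, in CPM for each library (points) with the mean and SD (line and bar). Clcf1 and the Schwann cell sum do not overlap between repair groups, and 1 delayed library reaches the immediate range for Lif, as 1 does for Cntf.

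The plot of all fold changes by delay sets the 5 comparisons side by side. Lif had a log2 difference of -1.22 in macrophages and -0.94 in the stump at day 5, and 0.33 (SE 0.397) in SC-labelled libraries. Whether delay acted differently on macrophages and on SC-labelled libraries was tested as a repair by cell type term. At day 5 it was called for none of 8 members by edgeR or DESeq2, where 0.0198% of all genes were called. Osm (1.17), Lif (1.57) and Il6 (1.37) were the 3 of 8 with an unadjusted p under 0.05, against 5.19% of all genes. At day 14 none of 9 was called (0% of all genes by edgeR, and none by DESeq2), and 2 of 9 had an unadjusted p under 0.05, against 3.42% of all genes. The delay effect did not differ by sex for any member tested in macrophages, SC-labelled libraries or stump at day 5 (edgeR adjusted p above the threshold, 0% of all genes called), and none reached an unadjusted p under 0.05 or was called by DESeq2, which does not show that the sexes were alike.

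**Figure D5:**
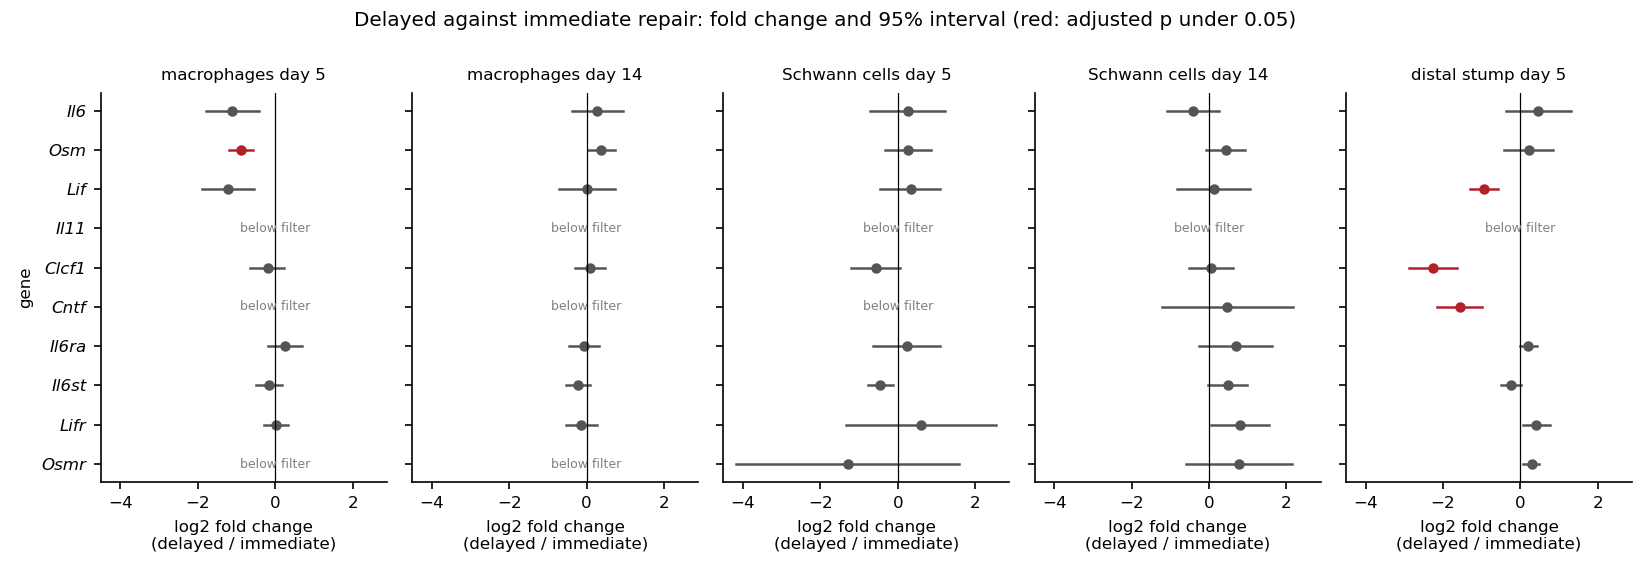
Log2 fold change of each member after delayed against immediate repair with its 95% interval (lines), in the 5 comparisons. Red points passed the adjusted p threshold, namely Osm in macrophages at day 5 and Clcf1, Cntf and Lif in the distal stump, and genes marked below filter were not tested.

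Genes that act downstream of gp130 were counted by lists of signalling, feedback and STAT3 responsive genes. A further list held genes for the induction and stability of the cytokines themselves, which are not downstream of gp130 by this choice. In the stump, 3 of 20 tested signalling genes rose and 4 fell after delay, where 12.8% of all genes rose and 13.5% fell (median log2 change 0.12, against 0.019 over all genes). The kinase Jak2 rose from 128 ± 23.7 to 192 ± 28.4 CPM (0.61, edgeR adjusted p = 0.00131), while Mapk3, the ERK1 kinase, fell by 0.85 and the adaptor Gab1 by 0.50. Of 10 tested feedback genes, 3 rose and none fell (median 0.15), led by Socs2, at 28.9 ± 4.69 against 17.7 ± 1.77 CPM without overlap (0.73, edgeR adjusted p = 8.23e-05). Socs3, the chief inhibitor of gp130, stood at 164 ± 58.0 and 160 ± 32.6 CPM.

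Of 25 tested STAT3 responsive genes in the stump, 3 rose and 3 fell (median 0.23), where 12.8% of all genes rose and 13.5% fell. Atf3, an injury-induced transcription factor, fell from 268 ± 51.5 to 72.7 ± 28.8 CPM (-1.86) and Saa3, an acute phase gene, by 1.33, while the repressor Bcl6 rose by 0.60. Of 19 tested genes for the induction and stability of the cytokines, 6 rose and 1 fell (median 0.34). Tnfaip3, an inhibitor of NF-kB, rose by 0.80, Nfkbiz, an activator of Il6, by 0.74 and the NF-kB subunit Rel by 0.67, whereas the AP-1 subunit Jun fell from 307 ± 42.1 to 177 ± 24.8 CPM (-0.77). Atf3 and Jun also belong to the isolation response list counted above, so their falls are not separate from that list.

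In macrophages, none of the listed genes was called after delay at day 5 by edgeR. Among the 22 induction genes tested, 17 had a log2 difference below 0 (median -0.20, against 0.012 over all genes), and Il10 (-0.99) and Nfkb1 (-0.42) came nearest to the threshold. From day 5 to day 14 after immediate repair, 11 of the 22 fell and none rose (median -0.37), where 6.01% of all genes fell and 5.33% rose. Ptgs2, the prostaglandin synthase COX-2, fell from 3670 ± 1840 to 792 ± 257 CPM (-2.40), Il10 from 491 ± 121 to 146 ± 48.5 CPM (-1.95), Il1a by 1.58 and Tnf by 1.48.

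Of 23 STAT3 responsive genes over the same interval, 10 fell and 1 rose (median -0.45), where 6.01% of all genes fell and 5.33% rose. Lrg1 (-2.67), Saa3 (-2.16) and the chemokine Ccl2 (-1.66) led the falls, and Cebpd rose by 0.87. None of 18 signalling genes changed, and of 9 feedback genes Cish rose (1.07) and Socs1 fell (-0.82). After delayed repair, where 3.13% of all genes fell and 3.28% rose, 4 of 22 induction genes fell (Ptgs2 -1.52, Il10 -0.98, Nfkbia -0.67, Zfp36 -0.49) and 3 of 23 STAT3 responsive genes fell (Lrg1 -3.40, Ccl2 -1.13, Cdkn1a -0.48), with none rising. Cish rose (1.51) and Socs1 fell (-0.79) there too.

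In SC-labelled libraries after delayed repair, 4 of 26 STAT3 responsive genes rose from day 5 to day 14 and 4 fell, where 3.34% of all genes rose and 4.75% fell. The glial filament gene Gfap rose by 4.34 and Serpina3n by 4.24 on the log2 scale, alongside the Schwann cell markers given above. Of the 22 induction genes 7 fell, led by Tnf (-2.19) and Ptgs2 (-1.66), and 4 fell after immediate repair, where 3.10% of all genes fell. Between cell types at day 5, 12 of 19 signalling genes were higher and 3 lower in SC-labelled libraries, where 35.6% of all genes were higher and 29.7% lower, among them Stat3 itself (1.50). Socs2 had a mean of 384 CPM there (n = 16) and of 2.70 CPM in macrophages (n = 17). The macrophage mean lay under the 5 CPM of the filter, so no fold is given for Socs2. Socs3 was lower in SC-labelled libraries (-1.70), at 583 ± 385 against 1530 ± 560 CPM.

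Some genes followed single members closely between libraries once the mean of each group was removed. Over the 16 stump libraries Il6 was most like Rnd1 (Spearman rho 0.95), Socs3 (0.87) and Mmrn2 (0.82), and Osm most like Il1b (0.94), Rab44 (0.91) and Lilra6 (0.89). Over the 31 SC-labelled libraries Cntf was most like Fam65a (0.83), Ngfr (0.81) and Pcdhgb6 (0.80), and over the 32 macrophage libraries Lif was most like Rbpms (0.74), Mt2 (0.73) and Tnf (0.72). These are descriptions over libraries that share depth and cell mixture, picked as the highest of all genes tested.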

How the data were processed

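RNA was sequenced from sorted macrophages and SC (1000 cells per library, amplified cDNA, kit without strand) and from distal stump RNA (100 ng, rRNA depleted, directional kit). Per the labels and the study's methods, reads were trimmed with cutadapt 1.8 and aligned to mm10 with TopHat2 2.1.1, and Cufflinks 2.2.1 (Cuffnorm, Cuffdiff) gave the study's FPKM values and differential expression. Which program wrote the deposited counts was not given in the sources used here. Estimated counts, deposited by the authors as 3 tables of unscaled values, were rounded to whole numbers. Cntf was not whole in 73 of 79 libraries.

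A gene entered a test when 6 or more of its libraries reached 5 CPM. Genes were tested with edgeR 4.0.16 (R 4.3.3) by the quasi-likelihood method with TMM scaling, and p-values were adjusted by Benjamini-Hochberg over all genes tested (threshold 0.05). Fold changes are on this scaled, fitted scale. SE and 95% intervals come from the same fit. Alternatives used DESeq2 1.42.0, limma 3.58.1 (voom with quality weights), library size scaling, other filters, sex as a covariate, and a block. Macrophages and SC of 31 animals came from the same animal by the labels, and the block there was the animal. The main fit had no block.

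The 10 members are named in every comparison, together with other family genes where measured, up to 4 called genes by fold from each list (or the 2 with the smallest p), and the 3 genes most like a member by Spearman rho of log2(CPM + 1). Members, lists and rules were chosen with earlier results of these data known. The edgeR script was tested on simulated counts. No column of the tables was left unused, and the tables hold no comparisons made by the authors. Promoters came from RefSeq. Some genes of the lists are not reported here.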

Additional observations from a re-analysis of the deposited data

Results flagged for a closer look

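In groups of 7 to 9 libraries, the highest or lowest value of a member was compared with the rest of its group, and 7 of 84 gene and group pairs had a library that stood apart, where chance gives about 1 in 20. Il6 was 86.1 CPM in macrophage immediate day 5 replicate 1, against 14.1 to 33.0 CPM in the others. Il6st was 46.8 CPM in macrophage immediate day 5 replicate 6, against 81.1 to 122 CPM. Lif was 0.965 CPM in macrophage delayed day 14 replicate 2, against 3.36 to 6.45 CPM. In SC-labelled libraries, Lif was 7.62 CPM in delayed day 5 replicate 8 (others 21.5 to 58.6 CPM), Clcf1 was 21.4 CPM in delayed day 14 replicate 1 (others 8.17 to 12 CPM), Il11 was 29.3 CPM in immediate day 14 replicate 1 (others 0 to 3.76 CPM), and Il6st was 50.5 CPM in immediate day 14 replicate 5 (others 163 to 318 CPM), one of the 2 libraries with high neutrophil markers.

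The change of Osm from day 5 to day 14 in macrophages differed between the repair groups by the interaction term given above, 1.27 on the log2 scale (SE 0.239, edgeR adjusted p = 0.0328).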

How the results depend on the processing

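Of 921 values of single members recomputed under alternatives to the processing, 864 kept their direction and their side of the threshold, and of 631 with 1 of 79 libraries left out 589 did. The mean levels of members under TMM scaled library sizes stayed within 1 SD for 100 of 100. Depth limits Il11, Cntf and Osmr in macrophages, which lay near the counting floor. Causes of the changes below were not tested.

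The members called after delay in macrophages at day 5 numbered 0, not 1, under edgeR's own expression filter and with no filter (Osm -0.89 under both, edgeR adjusted p = 0.0677 and 0.0782, over all alternatives 0.000155 to 0.0782), and 0 to 1 with a library left out. In the stump they numbered 5, not 3, under limma voom with quality weights, which added Lifr (0.47, adjusted p = 0.045) and Osmr (0.28, adjusted p = 0.0314), and 3 to 4 with a library left out. Osmr also passed under DESeq2 (0.28, adjusted p = 0.0390) and with sex as a covariate (0.30, adjusted p = 0.0462), and in 4 of the 16 fits without 1 library (delayed replicate 2 or 9, immediate replicate 1 or 4), and Lifr in 1 (0.48 without delayed replicate 1). In the other 3 comparisons of delay the number stayed at 0 without any 1 library.

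Over time in macrophages, the number called was 3, not 5, after immediate repair and 1, not 2, after delayed repair without TMM scaling. The Osm repair by day term was then not called (0 members, 1.16, edgeR adjusted p = 0.0950). By the check used, the replicate numbers of the labels were not taken to pair samples. In no comparison did every pair correlate above 0.1 (median correlations of pairs ran from -0.0521 to 0.256). Between repair groups of macrophages, 7 of 8 pairs at day 5 and 6 of 7 at day 14 did, so the check cannot exclude pairing there. With the number as a replicate block, 2 members were called after immediate repair (Il6 -1.30, Clcf1 -0.68 and Lifr -0.54 did not pass, edgeR adjusted p = 0.0598, 0.0555 and 0.0724) and 1 after delayed repair (Lifr -0.77, edgeR adjusted p = 0.0519), and in the stump 3 as before, with 2189 genes called in place of 3221. The other counts of called members were the same under the block. With the animal as a block, Il6ra passed between cell types at day 14 (-0.80, edgeR adjusted p = 0.0145).

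The following values turned sign, and none of them was called. For delay these were Lif in macrophages at day 14 (-0.009 by library size, -0.042 with the replicate block, -0.013 by voom), Il6ra in SC-labelled libraries at day 5 (-0.038 with sex, -0.170 with the replicate block) and Cntf there at day 14 (-0.071 with the replicate block, -0.220 by voom). Over time they were Il6st in macrophages after immediate repair (-0.006 and -0.010 under the other filters), Il6 (0.066), Osm (0.043) and Il6st (0.007) after delayed repair by library size, and Il6st there (0.055) with the replicate block. In SC-labelled libraries over time they were, after immediate repair, Lif (0.002 by library size), Il6 (0.063 with sex, 0.140 with the replicate block), Cntf (1.300) and Lifr (0.540) with the replicate block, and after delayed repair Lifr (0.540 with sex, 0.750 with the replicate block). Clcf1 between cell types at day 14 was 0.200 by library size. For repair by sex, Lifr in the stump was -0.005 and -0.018 under the other filters. For repair by cell type at day 5, Il6ra was -0.020 (DESeq2), -0.150 (library size), -0.016 (edgeR's own filter), -0.084 (sex) and -0.120 (animal block), and Osmr -0.220 (library size). At day 14, Clcf1 was 0.020 (library size) and Osm -0.033 (animal block).

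An alternative chosen after seeing the data left out the 2 SC-labelled libraries high in neutrophil markers. It turned the sign of Lif for delay at day 14 (-0.160) and over time after immediate repair (0.093), of Lifr for repair by day (-0.013), and of Osm (-0.039), Lif (-0.180) and Clcf1 (0.082) for repair by cell type at day 14. It changed no number of called members.

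With 1 library left out, differences by delay that changed sign ran from -0.064 to 0.074 for Lifr in macrophages at day 5. At day 14 they ran in macrophages from -0.10 to 0.28 for Lif, from -0.19 to 0.036 for Il6ra and from -0.009 to 0.21 for Clcf1. In SC-labelled libraries at day 14 they ran from -0.14 to 0.17 for Clcf1, from -0.33 to 0.87 for Cntf and from -0.19 to 0.50 for Lif.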
